A study of Mus musculus with 12 samples.

Results

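Microglia and Kupffer cells are the resident macrophages of brain and liver, and 10 of their genes were followed here in mice that lack Mettl5. The 10 members, of 55487 genes in the counts table, were picked by symbol. P2ry12, Tmem119 and Cx3cr1 stand for microglia, Clec4f, Cd5l, Vsig4 and Timd4 for Kupffer cells, and Csf1r and C1qa for macrophages of both organs. The tenth, Irf5, was selected on its measured rise in KO liver, so its liver values describe that choice and carry no test.

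RNA was sequenced from liver and brain of 6 mice, which gave 12 libraries in 4 groups of 3. Mice A, C and F were METTL5 KO and mice B, D and E were labelled WT. The KO allele carried a floxed exon 2 made in F1 hybrid ES cells of C57bl/6 and another strain, and the line was backcrossed to B6. A CMV-cre line, B6.C-Tg(CMV-cre)1Cgn/J, then removed the exon in the whole body, so macrophages and all other cells share the deletion. The study's text names heterozygous mice as the comparison group of its RNA-seq, whereas the deposited labels say WT, and WT below means the libraries so labelled. The study worked with both sexes at ages from 4 weeks up to 6 months, and the labels give neither sex nor age for these mice. Mice E and F, 1 of each genotype, had no more than 20 counts over 4 Y-linked genes in either tissue, against 2112 or more in each library of the other 4 mice.

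Microglia and Kupffer cells both arise from yolk sac or fetal progenitors, settle in their organ and renew themselves there. Signals through the CSF1 receptor, the product of Csf1r, keep them alive, and the transcription factor PU.1 sets their common program. Kupffer cells line the liver sinusoids and clear microbes, aged blood cells and lipoproteins from portal blood, a program in which MAF family factors and LXR-alpha take part. Microglia survey the brain with fine processes guided by receptors such as P2RY12 and CX3CR1. IRF5 is a transcription factor of the interferon regulatory factor family that acts below Toll-like receptors and turns on inflammatory cytokine genes in macrophages.

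Promoter sequence from RefSeq on the build GRCm38.p6, 250 bases before and 50 after the start site, was examined for 7 of the 10 members. Those of the 4 Kupffer cell genes, which moved alike from liver to liver, are printed with that of Irf5, the member selected on its liver values. Capitals mark the letters TGCTGA or TCAGCA (the core bound by MAF factors, on either strand) and GAGGAA or TTCCTC (the core bound by PU.1, on either strand).
Clec4f (chr6:83656067-83656366, minus strand): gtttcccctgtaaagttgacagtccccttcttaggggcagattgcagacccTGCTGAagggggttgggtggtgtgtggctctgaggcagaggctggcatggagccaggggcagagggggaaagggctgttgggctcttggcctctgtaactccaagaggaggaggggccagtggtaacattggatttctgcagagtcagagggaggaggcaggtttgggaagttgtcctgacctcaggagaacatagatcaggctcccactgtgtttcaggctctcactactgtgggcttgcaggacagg
Cd5l (chr3:87357631-87357930, plus strand): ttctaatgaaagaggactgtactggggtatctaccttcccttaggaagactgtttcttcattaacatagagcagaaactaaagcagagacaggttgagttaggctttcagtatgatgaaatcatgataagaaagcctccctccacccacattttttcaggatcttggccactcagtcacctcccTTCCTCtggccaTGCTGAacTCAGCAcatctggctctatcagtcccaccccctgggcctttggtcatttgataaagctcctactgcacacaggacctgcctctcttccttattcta
Vsig4 (chrX:96293389-96293688, minus strand): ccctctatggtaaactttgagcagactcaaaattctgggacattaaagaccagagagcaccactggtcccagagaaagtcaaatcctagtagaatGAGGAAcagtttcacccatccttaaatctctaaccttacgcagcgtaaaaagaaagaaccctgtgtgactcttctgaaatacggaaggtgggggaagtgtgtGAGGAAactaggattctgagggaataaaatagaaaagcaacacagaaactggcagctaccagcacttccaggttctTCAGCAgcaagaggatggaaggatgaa
Timd4 (chr11:46810549-46810848, plus strand): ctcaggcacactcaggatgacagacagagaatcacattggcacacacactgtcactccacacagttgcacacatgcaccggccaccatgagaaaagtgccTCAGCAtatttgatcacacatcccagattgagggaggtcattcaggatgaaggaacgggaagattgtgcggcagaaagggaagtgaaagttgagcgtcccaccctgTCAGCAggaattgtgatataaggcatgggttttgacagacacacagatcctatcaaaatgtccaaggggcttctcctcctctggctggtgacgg
Irf5 (chr6:29526375-29526674, plus strand): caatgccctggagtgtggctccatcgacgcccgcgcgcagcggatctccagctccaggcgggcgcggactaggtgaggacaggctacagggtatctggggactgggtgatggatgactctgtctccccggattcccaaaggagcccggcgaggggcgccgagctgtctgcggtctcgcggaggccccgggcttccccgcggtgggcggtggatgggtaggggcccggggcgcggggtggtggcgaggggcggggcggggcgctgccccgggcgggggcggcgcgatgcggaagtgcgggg

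The MAF core stood in the windows of Clec4f (1), Cd5l (2), Vsig4 (1) and Timd4 (2), and in none of those of P2ry12, Cx3cr1 and Irf5. It occurs in 19.5% of the 32851 RefSeq promoter windows of the same length. The PU.1 core stood in Cd5l (1) and Vsig4 (2), against 28.3% of all windows. The element bound by interferon regulatory factors, written as GAAA, any 2 bases and GAAA, was in none of the 7 windows and in 3.44% of all. The matches do not overlap one another, and they describe letters, not bound sites. The promoters of Tmem119, Csf1r and C1qa were not examined, so nothing is said of their letters.

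Library totals ran from 14403309 to 21623180 counts, which puts a count of 3 at 0.139 to 0.208 CPM before scaling. CPM are counts relative to the TMM-scaled library size, scaled within a tissue. RPKM also divide by the exonic length of the gene and are scaled over all 12 libraries, so they compare genes and tissues. Counting error and the spread over 3 mice limit the precision, and in whole tissue fewer macrophages cannot be told apart from less of a transcript per macrophage. As a check of the labels, Mettl5 stood at 14.9, 8.13 and 8.35 CPM in the WT livers (mice B, D and E) and 3.86, 3.64 and 4.07 in the KO livers (mice A, C and F). In brain it was 9.09, 5.87 and 5.02 CPM in WT and 3.33, 3.96 and 3.82 in KO. All KO libraries lay below all WT libraries of their tissue. Mitochondrial rRNA took 10.7 to 16.9% of the counts of WT livers and 7.36 to 8.66% of KO livers, and 7.63 to 17.7% of WT brains and 21.4 to 31.6% of KO brains.

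The question of the first comparison is where each gene is expressed. The 4 Kupffer cell genes were liver transcripts, the 3 microglia genes were higher in brain, and Csf1r, C1qa and Irf5 were higher in liver. The 5 members with enough counts to be tested in each tissue, P2ry12, Cx3cr1, Csf1r, C1qa and Irf5, passed the threshold (adjusted p under 0.1, edgeR quasi-likelihood test with Benjamini-Hochberg adjustment) between WT liver and WT brain, where 78.3% of 17694 genes did. The other 5, Tmem119 and the Kupffer cell genes, had enough counts in 1 organ alone, which fixes their call, so their values are given as a description. The direction is fixed by the choice of genes for the 7 that stand for 1 organ.

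In WT liver, Cd5l, a secreted scavenger protein of macrophages also called AIM, reached 50.6 ± 17.9 RPKM (SD, n = 3) and Clec4f, a C-type lectin of Kupffer cells, 48.6 ± 10.3. C1qa, which encodes a chain of complement C1q, followed with 28.4 ± 5.51 RPKM. Vsig4, a complement receptor that captures microbes, had 20.8 ± 6.13 RPKM. The ranges of Cd5l and Clec4f overlapped, as did those of C1qa and Vsig4 and those of Vsig4 and Csf1r. Within each WT liver C1qa lay above Vsig4 and Vsig4 above Csf1r, while the order of Cd5l and Clec4f changed between livers.

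Below them in WT liver stood Csf1r with 12.5 ± 1.66 RPKM, Irf5 with 6.40 ± 0.591 and Timd4, the phosphatidylserine receptor TIM-4 of long-lived resident macrophages, with 4.02 ± 1.35. The ranges of these 3 did not overlap. The microglia genes were at 0.656 ± 0.140 RPKM for P2ry12, 0.271 ± 0.170 for Cx3cr1 and 0.118 ± 0.102 for Tmem119. P2ry12 lay above the other two in every WT liver, and the ranges of Cx3cr1 and Tmem119 overlapped.

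In brain, Clec4f, Cd5l and Vsig4 had at most 1 count in any library and Timd4 at most 3. Set against the level that 3 counts would give in a WT brain, Clec4f was at least 792-fold higher in WT liver, Cd5l at least 679-fold, Vsig4 at least 203-fold and Timd4 at least 57.6-fold. In KO the same bounds were 529-, 362-, 108- and 32.6-fold. The Kupffer cell label is thus carried by genes that are near 0 in every brain library.

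Among the genes measured in WT brain, C1qa was highest at 8.37 ± 1.35 RPKM, then Csf1r at 4.52 ± 0.746. Cx3cr1, the fractalkine receptor, was at 2.78 ± 0.246 RPKM, P2ry12, an ADP receptor, at 2.50 ± 0.911, and Tmem119, a membrane protein used as a microglia marker, at 2.02 ± 0.334. The ranges of P2ry12 overlapped those of both Cx3cr1 and Tmem119. Irf5 was lowest at 0.594 ± 0.143 RPKM. Against WT brain, WT liver was lower by a log2 difference of -4.01 for Tmem119, with its 0 to 6 counts in WT liver, -3.33 (SE 0.369) for Cx3cr1 and -1.91 (SE 0.356) for P2ry12. It was higher by 1.47 (SE 0.178) for Csf1r, 1.77 (SE 0.207) for C1qa and 3.42 (SE 0.237) for Irf5, where the median over all genes tested was -0.160.

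**Figure D1:**
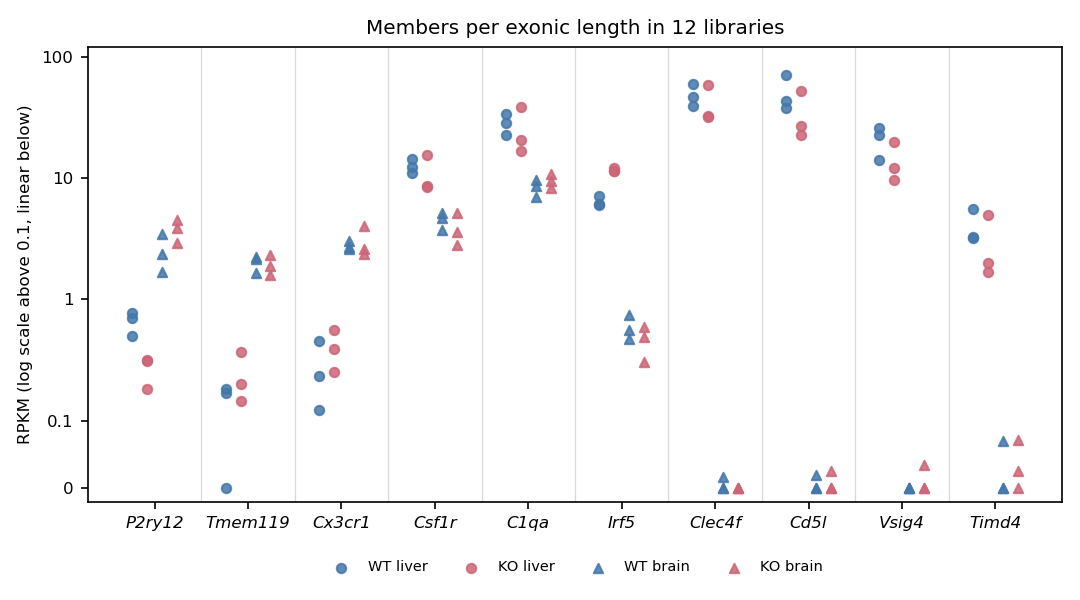
RPKM of the 10 members (vertical axis, log scale above 0.1 and linear below) in the 12 libraries, circles for liver and triangles for brain, blue for WT and red for KO. Clec4f, Cd5l, Vsig4 and Timd4 sit at 1.67 RPKM or more in every liver and under 0.1 in every brain library, and the KO livers of Irf5 sit above its WT livers.

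The KO and WT livers address whether loss of Mettl5 changed macrophage transcripts in liver. None of the 8 members tested there, Irf5 not counted, passed the threshold in edgeR's test, and 0% of all 14075 genes did. DESeq2 also called none of the 8, and 171 of all genes. At an unadjusted p under 0.05, 1 of the 8 (P2ry12) and 1032 of all genes passed. The 4 Kupffer cell genes, Csf1r and C1qa had negative fold changes, with KO mice A and C low and KO mouse F high. P2ry12 was lower and Irf5 higher in all 3 KO livers.

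Clec4f was at 76.2, 118 and 92.7 CPM in the WT livers (B, D and E) and 62.8, 61.3 and 113 in the KO livers (A, C and F). Cd5l was at 60.2, 116 and 70.2 CPM in WT and 42.8, 36.04 and 83.3 in KO. For both genes mouse D was highest of the 6, mice A and C lay below all WT livers, and mouse F lay inside the WT range. The log2 fold change of KO over WT was -0.28 (SE 0.267) for Clec4f and -0.60 (SE 0.388) for Cd5l, with adjusted p = 0.883 and 0.811.

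Vsig4 read 16.3, 30.9 and 26.7 CPM in WT livers and 11.1, 14.2 and 22.8 in KO livers. Timd4 read 5.61, 9.73 and 5.56 CPM in WT and 2.83, 3.41 and 8.34 in KO. Both again had mouse D highest, A and C below all WT and F inside the WT range. The log2 fold change was -0.61 (SE 0.319) for Vsig4, with adjusted p = 0.757, and -0.51 (SE 0.433) for Timd4, with adjusted p = 0.871. With no filter on low counts Vsig4 passed, at a log2 fold change of -0.60 and adjusted p = 0.0558.

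Csf1r, the receptor for CSF1 and IL-34, was at 49.6, 65.9 and 56.6 CPM in WT livers and 38.2, 38.8 and 69.4 in KO livers. C1qa was at 18.6, 28.2 and 23.7 CPM in WT and 16.6, 13.7 and 31.0 in KO. For these genes KO mouse F was highest of all 6 livers, while A and C stayed below every WT liver. The log2 fold changes were -0.23 (SE 0.242) for Csf1r and -0.20 (SE 0.313) for C1qa, with adjusted p = 0.896 and 0.944. C1qb and C1qc, the neighbours of C1qa on chromosome 4 and the other chains of C1q, gave -0.30 (SE 0.380) and -0.20 (SE 0.303). KO mouse F was again the highest of the KO livers, with C1qb at 13.1, 13.6 and 31.4 and C1qc at 15.8, 17.9 and 33.7 in A, C and F.

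The arrangement seen in these genes, A and C below the 3 WT livers and F not, was met by 6 of the 9 members tested in liver (Csf1r, C1qa, Clec4f, Cd5l, Vsig4 and Timd4) and by 6.59% of the 14075 genes. It was described after the values were seen. The summed CPM of the 4 Kupffer cell genes was 158, 275 and 195 in WT livers and 120, 115 and 227 in KO livers. The median log2 fold change of the 4 was -0.56, against -0.0024 over all genes tested. Without mouse F it was -1.01, without mouse D -0.23 and without both mice that lack Y-linked counts (E and F) -1.02. The 4 values were negative, and none passed the threshold, in each of these settings.

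**Figure D2:**
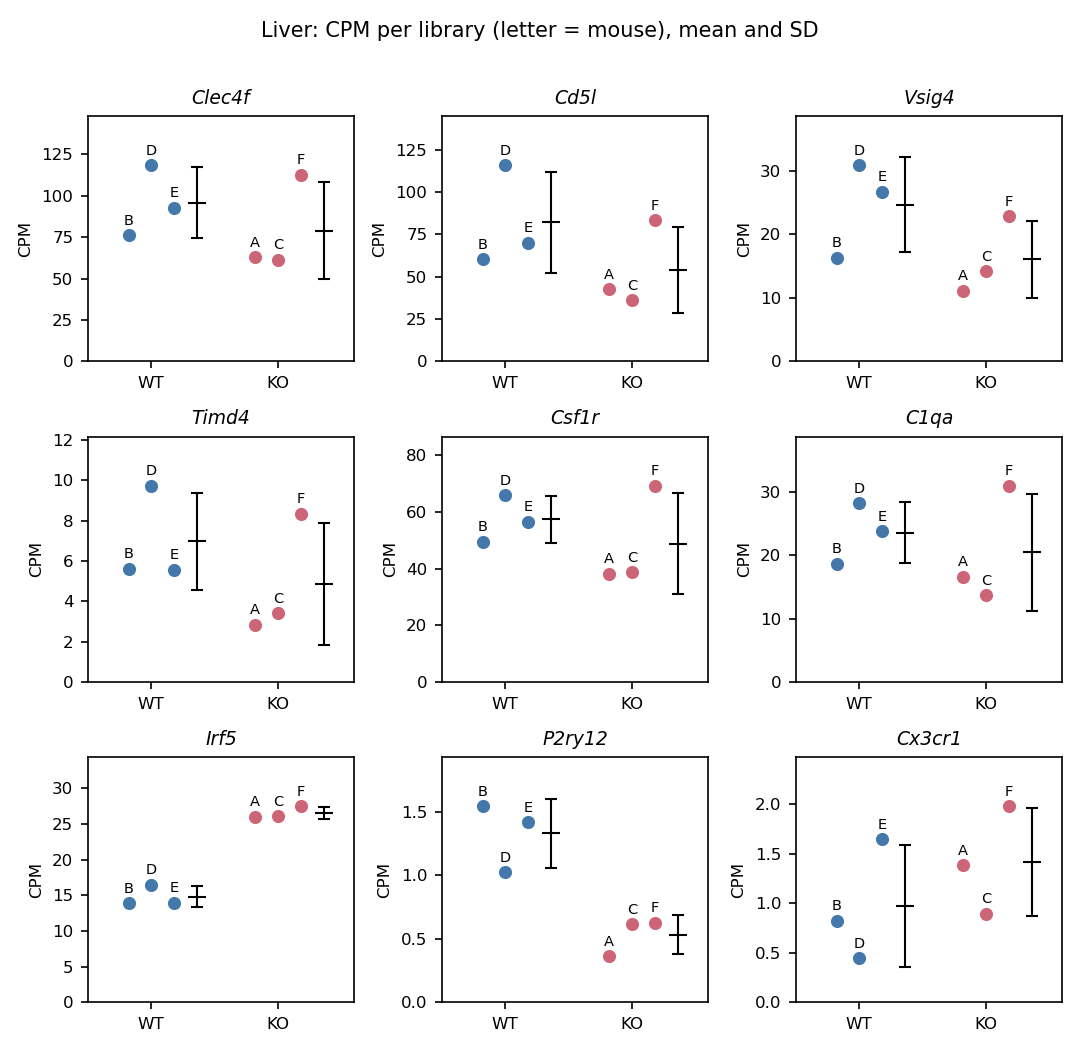
CPM in liver (vertical axis, from 0) of 9 members in the 3 WT (blue) and 3 KO (red) libraries, each point lettered by its mouse, with the mean and SD as a black bar beside each group. KO mouse F stands apart from KO mice A and C in Clec4f, Cd5l, Vsig4, Timd4, Csf1r and C1qa.

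P2ry12 was at 1.54, 1.02 and 1.42 CPM in WT livers and 0.361, 0.616 and 0.626 in KO livers, so all KO libraries lay below all WT libraries. This holds for 1 of the 8 members other than Irf5 and for 6.44% of all genes tested. The values rest on 71 counts in 3 WT livers and 29 in 3 KO livers. The log2 fold change was -1.30 (SE 0.427), with an unadjusted p = 0.0135 and adjusted p = 0.498 in the edgeR test. P2ry12 lies on chromosome 3 from 59216272 to 59262871 of mm10 on the minus strand, inside Med12l on the other strand, and the counting used strand.

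Cx3cr1 was at 0.824, 0.448 and 1.65 CPM in WT livers and 1.39, 0.896 and 1.98 in KO livers. Its groups overlapped, and the log2 fold change was 0.54 (SE 0.526), with adjusted p = 0.886. The gene model of Cx3cr1 also spans 3 genes on its own strand, Gorasp1, Csrnp1 and Xirp1. Tmem119 had 0 to 6 counts in WT livers and 5 to 12 in KO livers and was too low for the test.

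Irf5, on chromosome 6 from 29526625 to 29541871 of mm10 on the plus strand, was at 13.95, 16.52 and 13.97 CPM in WT livers. In KO livers it was at 26.0, 26.1 and 27.5 CPM. The means were 14.8 ± 1.48 and 26.6 ± 0.841 CPM (SD, n = 3). The log2 fold change was 0.84, and each KO liver stood at 176 to 186% of the WT mean. All KO livers lay above all WT livers, as for 6.5% of all genes tested, and since this rise chose the gene nothing is read from it.

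The 3' end of Irf5 overlaps Tnpo3, a nuclear import receptor gene on the other strand, by 1045 bases. Tnpo3 was at 51.9, 54.7 and 47.5 CPM in WT livers and 52.9, 56.3 and 43.7 in KO livers, a log2 fold change of -0.01 (SE 0.137). Kcp and Atp6v1f, on the other side of Irf5, gave 0.24 (SE 0.386) and 0.06 (SE 0.161). Neither Tnpo3, Kcp nor Atp6v1f passed the threshold in liver, and their groups overlapped.

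**Figure D3:**
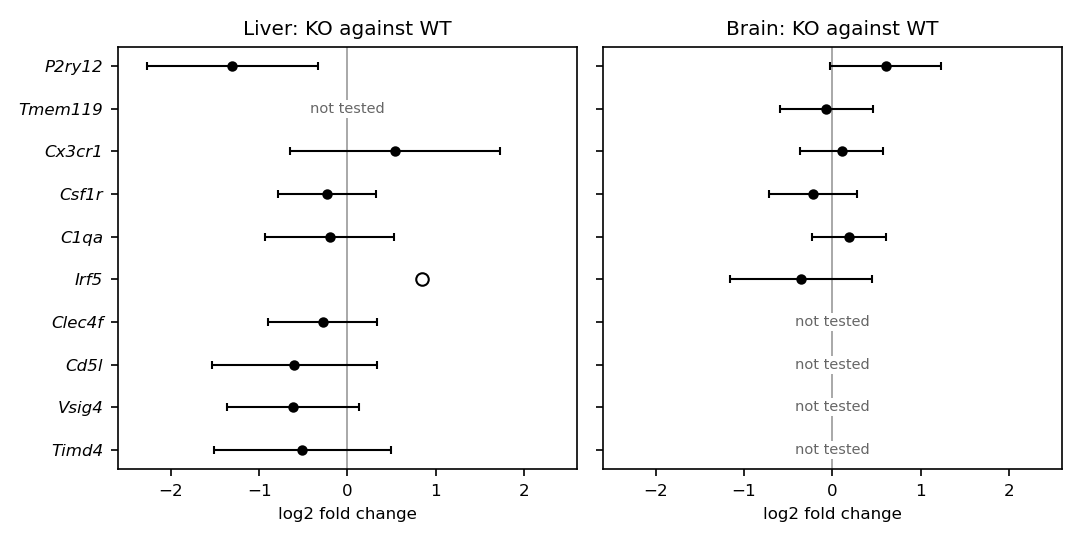
Log2 fold change of KO over WT (horizontal axis) for each member in liver (left) and brain (right), points with 95% intervals from the edgeR fit. The liver point of Irf5 is open and has no interval because its rise chose the gene. In liver the P2ry12 interval, from -2.26 to -0.34, excludes 0 before adjustment for the number of genes, and in brain all 6 intervals cover 0.

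In brain the comparison asks the same of microglia. None of the 6 members tested passed the threshold, where 0.064% of 17188 genes (11, all higher in KO) did, and none had an unadjusted p under 0.05, against 1885 of all genes. DESeq2 called no member either, and 267 of all genes. No member had all KO libraries above all WT libraries or below them, whereas 8.41% of genes had the first and 7.94% the second.

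P2ry12 was at 11.3, 5.37 and 7.59 CPM in WT brains (B, D and E) and 14.6, 9.42 and 12.7 in KO brains (A, C and F). KO brains A and F lay above all WT brains and KO brain C inside the WT range. The log2 fold change was 0.60 (SE 0.282), with an unadjusted p = 0.0589 and adjusted p = 0.464. Tmem119 was at 4.83, 6.57 and 6.38 CPM in WT and 5.61, 6.76 and 4.68 in KO. Cx3cr1 was at 14.8, 17.4 and 15.5 CPM in WT and 15.04, 22.80 and 13.51 in KO. Their groups overlapped, with log2 fold changes of -0.07 (SE 0.235) and 0.11 (SE 0.208).

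Csf1r was at 27.3, 37.7 and 34.2 CPM in WT brains and 20.8, 37.8 and 26.6 in KO brains. Mouse F, highest in liver, was in the lower part of the range here, and mouse C was highest. The log2 fold change of Csf1r was -0.22 (SE 0.222). C1qa was at 9.22, 12.6 and 11.2 CPM in WT and 14.3, 11.0 and 12.5 in KO, a log2 fold change of 0.19 (SE 0.187). C1qb and C1qc gave -0.13 (SE 0.170) and 0.04 (SE 0.179). The C1q chains thus lay on both sides of 0, none of them past the threshold.

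Irf5 was at 1.74, 2.06 and 2.76 CPM in WT brains and 1.14, 1.80 and 2.18 in KO brains. The groups overlapped, and the log2 fold change was -0.35 (SE 0.359), with adjusted p = 0.699. In brain the counts behind it were 123 over the WT libraries and 72 over the KO libraries.

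Markers of brain regions moved with genotype beside these values. Of 10 olfactory bulb genes, 7 were called higher in KO brain, with a summed CPM of 23.8 to 36.2 in WT and 90.8 to 124 in KO. The 10 cerebellum genes summed to 1049 to 1588 CPM in WT and 219 to 668 in KO, and the 10 choroid plexus genes to 246 to 410 and 126 to 197, with none of either list called by edgeR and 3 of each by DESeq2. Without mouse E the olfactory bulb calls were 2. No gene of these 3 lists was at 0 in all brain libraries. Sums for neurons (3716 to 4554 CPM in WT, 3999 to 4322 in KO), astrocytes (3566 to 4580 and 3385 to 4565), oligodendrocytes (2613 to 3230 and 2443 to 3017), border and perivascular macrophages (11.3 to 15.002 and 11.5 to 15.7) and blood (35.6 to 63.2 and 32.7 to 44.3) overlapped between genotypes. The part of these lists in the microglia values was not tested.

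**Figure D4:**
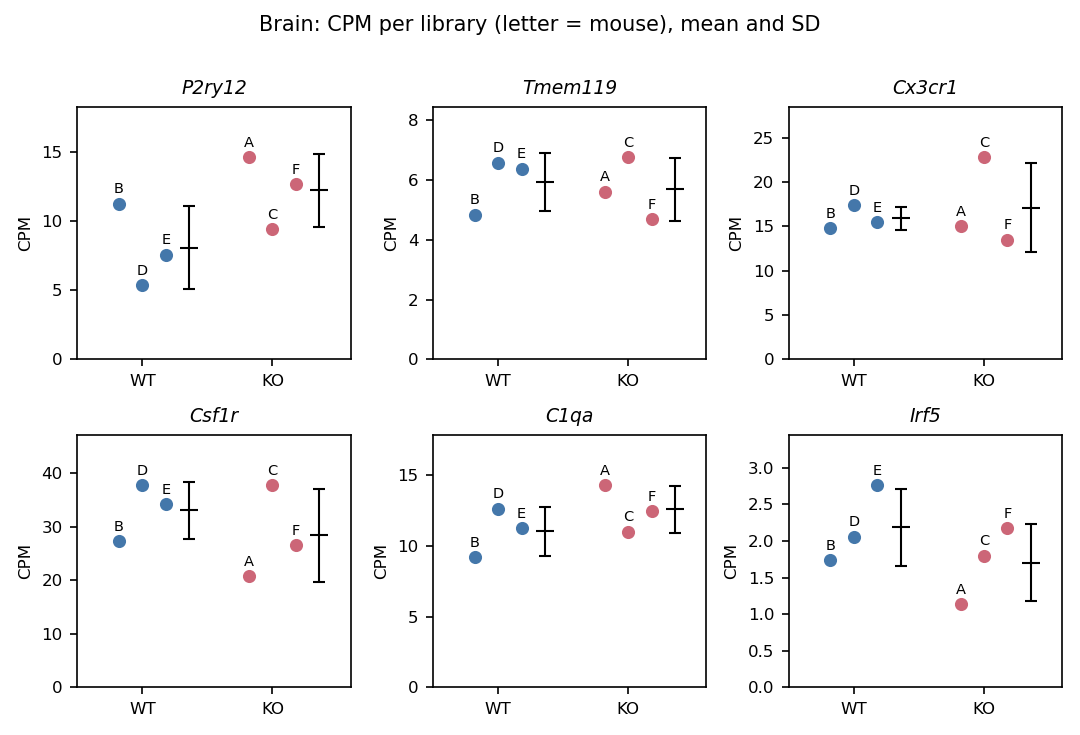
CPM in brain (vertical axis, from 0) of the 6 members tested there in the 3 WT (blue) and 3 KO (red) libraries, each point lettered by its mouse, with the mean and SD as a black bar. The groups of all 6 genes overlap, and KO brains of P2ry12 reach from 9.42 to 14.6 CPM against 5.37 to 11.3 in WT.

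Whether an effect differed between liver and brain was tested in a fit of the 12 libraries, by taking the brain effect of KO from its liver effect. None of the 4 members tested in each tissue, Irf5 not counted, passed the threshold, and 0% of 18944 genes did, with 2004 at an unadjusted p under 0.05. P2ry12 had the difference of largest size among the 4, -1.88 (SE 0.488, from -2.92 to -0.83), with an unadjusted p = 0.00185 and adjusted p = 0.203. It stayed above the threshold with mouse as a block (adjusted p = 0.246) and passed it with DESeq2 (adjusted p = 0.0438) and with no filter on low counts (adjusted p = 0.0942). Cx3cr1 gave 0.46 (SE 0.528), Csf1r 0.02 (SE 0.360) and C1qa -0.35 (SE 0.380). For Irf5 the difference was 1.23, which contains the rise that chose it. Tmem119, too low for the test in liver, and the 4 Kupffer cell genes, at the floor in brain, give no such difference.

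Lists of related genes place the members among other macrophage genes. Of 16 tested genes shared by tissue macrophages, 15 had a negative fold change in KO liver, with a median of -0.35 against -0.0024 over all genes, of which 6984 of 14075 were positive. None passed the threshold in edgeR's test. Among the most abundant were Lyz2, lysozyme (41.7 RPKM over the 6 livers, log2 fold change -0.52, SE 0.322), and C1qb. KO mice A and C lay below all WT livers, and F did not, for 11 of the 16, and the summed CPM was 235, 339 and 279 in WT and 176, 158 and 285 in KO. The list's median was -0.68 without mouse F and -0.14 without mouse A. In brain 9 of 17 were negative, the median was -0.01 and none passed.

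Of 15 other Kupffer cell genes, 10 were negative in liver, with a median of -0.14, and none passed. The most abundant were C6, a complement component that hepatocytes also make (52.4 RPKM, 0.37), Nr1h3, which encodes LXR-alpha (38.7 RPKM, -0.14), and Fcna, ficolin A (28.5 RPKM, -0.08). Marco, a scavenger receptor for bacteria, and Cd163, the receptor for haemoglobin and haptoglobin, are named after their values were seen, as the 2 with an unadjusted p under 0.05. They gave -1.29 (SE 0.465) and -0.46 (SE 0.175), and Marco passed with no filter on low counts. KO mice A and C lay below all WT livers, and F did not, for 5 of the 15. The summed CPM was 494, 545 and 368 in WT (B, D and E) and 554, 532 and 389 in KO (A, C and F). C6 had the highest level in this sum and varied widely, with an SD of 37.7 RPKM over the 6 livers. The median was -0.37 without mouse F and -0.01 without mouse A. In brain 10 of these genes could be tested, with a median of -0.17 and none passing.

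Of 15 other microglia genes, 14 were tested in brain, where 8 were positive and 6 negative, the median was 0.26 against -0.0016 over all genes, and none passed. Cst3, cystatin C, which astrocytes also make, led with 207 RPKM over the 6 brains (log2 fold change 0.16, SE 0.145). Ctss, cathepsin S, followed with 33.3 RPKM (-0.07, SE 0.165). In liver 11 were tested, the median was 0.02 and none passed. Tgfbr1, a TGF-beta receptor, in brain (0.48, SE 0.148) and Olfml3, an extracellular matrix protein, in liver (0.88, SE 0.270) are named after their values were seen, as the ones with an unadjusted p under 0.05.

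A list of 14 genes held the CSF1R ligands Csf1 and Il34, 8 signalling proteins of myeloid cells, the receptor genes of other colony-stimulating factors Csf2ra, Csf2rb and Csf3r, and the cytokine gene Tgfb1. None passed in either tissue, with a median of -0.04 in liver and 0.09 in brain. In liver the adaptor Grb2 (13.4 RPKM, 0.01), the phosphatase Ptpn6 (12.6 RPKM, -0.04) and the adaptor Fyb (3.94 RPKM, -0.27) were most abundant. In brain they were Grb2 (18.2 RPKM, 0.06), the ligand Il34 (4.29 RPKM, 0.42, SE 0.218) and the ubiquitin ligase Cbl (3.76 RPKM, -0.08). Csf1, the other ligand, named after its values were seen, gave -0.06 (SE 0.153) in liver and -0.54 (SE 0.271) in brain. Tgfb1, also named after its values were seen, gave 0.51 (SE 0.167) in liver and was the one gene of the list with an unadjusted p under 0.05 there.

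The other 8 genes of the IRF family lay on both sides of 0 in KO liver. Their median log2 fold change was -0.05, 3 were positive and 5 negative, and none passed or had all KO livers above all WT livers. Irf3, an interferon-inducing factor, was at 13.3 RPKM (0.16, SE 0.127) and Irf2 at 9.49 RPKM (-0.04, SE 0.127). In brain 7 were tested, with a median of -0.13 and none past the threshold, and the most abundant were Irf2 (2.95 RPKM, 0.01), Irf3 (2.49 RPKM, -0.35) and Irf9 (1.13 RPKM, -0.13).

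A list of 20 genes held 6 cytokine genes downstream of IRF5, Il6, Tnf, Il12b, Il1b, Ccl3 and Ccl4, and 14 others. The 14 were genes of the Toll-like receptor path to IRF5, but for Tnpo3, the neighbour of Irf5 on the chromosome. Of the cytokine genes Il1b alone had enough counts to be tested in liver, and none in brain. In liver 14 genes of the list were tested, 4 positive and 10 negative, with a median of -0.04 and none past the threshold. The receptors, all at under 1 RPKM, and Il1b, named after their values were seen, had the most negative values of the list, with -0.53 (SE 0.374) for Tlr2, -0.53 (SE 0.423) for Tlr4, -0.68 (SE 0.455) for Tlr7, -0.99 (SE 0.437) for Tlr8 and -0.82 (SE 0.451) for Il1b. Tlr8 alone had an unadjusted p under 0.05. Tlr2, Tlr4 and Tlr8 lay below all WT livers in A and C but not in F. Among the signalling genes the kinase Irak1 (16.7 RPKM, -0.04), the receptor chaperone Unc93b1 (14.5 RPKM, 0.10) and the kinase Lyn (12.4 RPKM, 0.11) were most abundant. In brain 12 were tested, with a median of -0.09 and none past the threshold, led by Irak1 (5.26 RPKM, -0.18), Tnpo3 (3.67 RPKM, -0.07) and Unc93b1 (2.42 RPKM, 0.30).

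**Figure D5:**
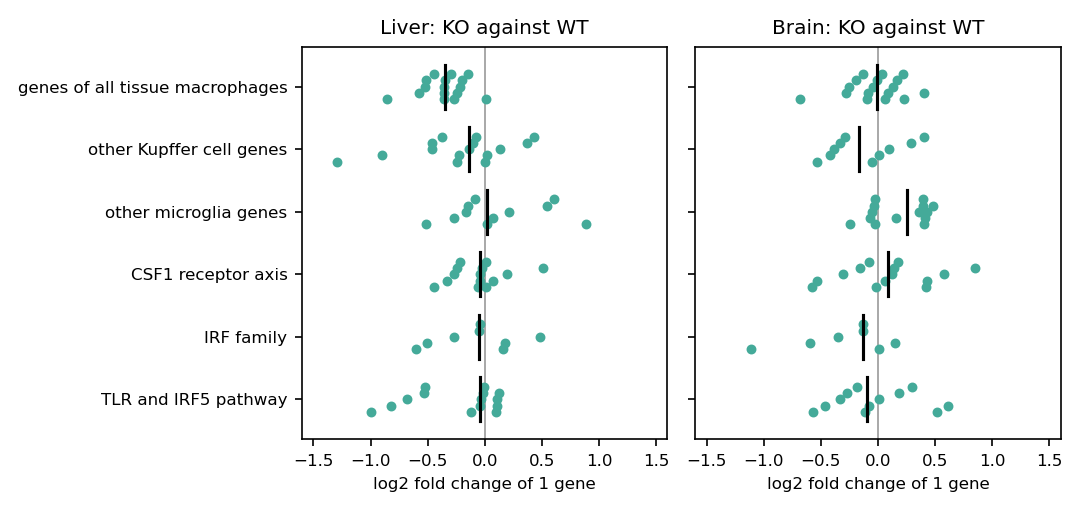
Log2 fold change of KO over WT (horizontal axis) of each tested gene (points) in 6 lists, with the list median as a black line, in liver (left) and brain (right). In liver the genes of all tissue macrophages lie to the left of 0 but for 1, with a median of -0.35, while the IRF family has a median of -0.05. The list named TLR and IRF5 pathway, with a median of -0.04, spreads from -0.99 for Tlr8 to 0.12.

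Markers of other liver cells show what else differed between these livers. Summed CPM of 14 lymphocyte and dendritic cell genes was 49.7, 149 and 30.7 in WT livers and 17.0, 14.4 and 14.5 in KO livers, with no overlap. Ighm, the antibody heavy chain of B cells, named after its values were seen, gave -3.06 (SE 0.800) and passed with DESeq2. It carried the sum, with 25.6 RPKM over the 6 livers against 0.444 or less for each other gene of the list. The 8 genes tested had a median of -0.25, with 2 positive and 6 negative. All KO livers lay below all WT livers for 1 of the 8 and above them for 1, against 6.44% and 6.5% of all genes tested. Mouse D was highest for this list too. Sums for hepatocytes (63608 to 78518 CPM in WT, 72652 to 77417 in KO), sinusoidal endothelium (390 to 507 and 424 to 506), stellate cells (374 to 433 and 403 to 526), border and perivascular macrophage genes (146 to 192 and 154 to 184), monocytes and neutrophils (2.99 to 8.46 and 2.85 to 5.58) and blood (133 to 190 and 68.7 to 215) overlapped between genotypes. Among the defining markers, 3 of the 10 monocyte and neutrophil genes were at 0 in all WT livers. None of these lists had a gene past the threshold in liver in edgeR's test, and their part in the macrophage values was not tested.

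Genes with a pattern most like a member were ranked by Pearson r of log2 CPM centred on each tissue, over 12 libraries and 12574 genes. For Irf5 the 5 nearest were Rbm15 (r = 0.924), Hmgxb3 (0.922), Sema6b (0.918), Rnps1 (0.915) and Ankzf1 (0.887). For Csf1r they were Klf2 (0.967), Sdc3 (0.940), Kctd12 (0.916), AC158975.2 (0.915) and 6430548M08Rik (0.914). The points share libraries and depth, and the values describe likeness only. Hmgxb3 overlaps the 3' end of Csf1r on the other strand by 873 bases and was near Irf5, not Csf1r, in this ranking. The ranking held only genes tested in both tissues, so Tmem119 and the 4 Kupffer cell genes could not appear in it. Of the members that could, none was among these nearest genes of Irf5 or Csf1r.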

How the data were processed

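RNA of liver and brain from 3 KO and 3 WT mice was measured as stranded total RNA libraries (SMARTer Stranded Total RNA-Seq Kit v2, single-end reads). Per the submitters' processing notes and the study's methods, the authors checked reads with FastQC 0.11.5, trimmed them with Trimmomatic, aligned them to mm10 with STAR 2.7.3a and counted them over exons by strand with featureCounts. The deposited values are raw counts per gene, 55487 genes by 12 libraries, with no normalisation. The authors compared genotypes within tissue with DESeq2.

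Libraries were grouped by label. Counts were fitted in R 4.3.3 with edgeR 4.0.16 (TMM, filterByExpr, robust quasi-likelihood F test), within tissue for KO against WT, over 6 WT libraries for liver against brain and over all 12 for the difference of effects. Benjamini-Hochberg adjustment ran over all genes tested, with a call at an adjusted p under 0.1. Standard errors came from the F statistic. A gene with at most 3 counts in each library of a group was taken as at the floor, and folds against it are lower bounds from 3 counts in each library. Alternatives were DESeq2 1.42.0, RLE scaling, no filter, no mitochondrial rRNA, each mouse left out, a Y-linked covariate, 1 fit of all libraries, mouse as a block and, chosen after seeing the data, fits without mice E and F. Liver and brain of 1 mouse are paired by the labels, and the correlation of their deviations ran from -0.04 to 0.14 over the 6 mice. Within a tissue, replicates are different mice, and p-values measure the spread among them. The fits of liver against brain and of the difference took the liver and brain libraries of a mouse as independent, except with mouse as a block. The study describes its RNA-seq mice as pairs of a KO and a control, but the labels do not give the pairs, so no fit holds a term for them.

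The members and lists were chosen with earlier results of these data known. Named are all members, Mettl5, the neighbours of Irf5 and C1qa, the genes of each list past the threshold or else its 3 most abundant, and the 5 genes nearest to Irf5 and Csf1r. Other named genes are marked in the text, and some genes that this rule names are not reported here. For the marker lists, sums are given in place of the 3 genes. Symbols were matched for 55141 genes, and a likeness used log2 CPM after edgeR added a prior of 2 counts, scaled to library size.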

Additional observations from a re-analysis of the deposited data

How the results depend on the processing

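No member passed in brain under any alternative, and the 5 members tested in each tissue passed between the WT tissues under each, also with mouse as a replicate block. The count of members past the threshold in KO against WT liver, reported as 0, was 1 (Vsig4) with no filter on low counts, Irf5 not counted. For the difference between tissues, also without Irf5, it was 0 with the replicate block and 1 (P2ry12) with DESeq2 and with no filter. With each mouse left out in turn the counts on the same terms were 0 in liver, brain and the difference. Directions turned for C1qa in liver (-0.63 to 0.0189 over the fits that leave out a mouse), Tmem119 (-0.21 to 0.0590) and Cx3cr1 (-0.16 to 0.25) in brain, and Cx3cr1 (-0.0090 to 1.07) and Csf1r (-0.37 to 0.43) in the difference between tissues. Tmem119 in brain was 0.121 without mice E and F. No direction turned with the block. Counts over all genes moved more: 0 in liver became 171 with DESeq2, 443 with no filter, 87 without mouse D, 2 without mouse C, 82 with the Y-linked covariate, 3 in 1 fit of all libraries and 29 without mice E and F. In brain 11 became 267 with DESeq2, 1000 with no filter and 0 without mice E and F, and was 6, 3, 23, 4, 2 and 5 without mouse A, B, C, D, E or F. For the difference 0 became 367 with DESeq2, 183 with no filter, 86 without mouse D, 1 without mouse F, 1 with RLE scaling and 68 with the block. The cause was not tested. Low counts limit P2ry12 and Cx3cr1 in liver and Irf5 in brain.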
